A study of Homo sapiens with 8 samples.

Results

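The proteasome subunit genes are the 38 protein-coding genes PSMA1 to PSMA7, PSMB1 to PSMB7, PSMC1 to PSMC6, PSMD1 to PSMD14 and PSME1 to PSME4, out of 19974 protein-coding genes on chromosomes 1 to 22 and X. The rule goes by gene name and uses no measured value. The cells were OPM-2, an established human multiple myeloma line with the t(4;14) translocation, and all groups share that line and an exposure of 72 h. One group received the solvent DMSO, one 1 µM all-trans retinoic acid (ATRA, which activates retinoic acid receptors), one 1 µM pomalidomide (POM, which directs the cereblon ubiquitin ligase to new substrates) and one 1 µM ATRA with 1 µM POM, written ATRA+POM or both agents. Each group had 1 ChIP library and 1 input library, and peaks of each ChIP library were deposited as a list. The labels name no antibody, so the protein whose binding the peaks stand for is not known here. With 1 library per treatment no difference could be set against a spread between replicates, and every comparison describes libraries and not conditions.

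The proteasome is the protease that degrades proteins tagged with ubiquitin. Its core, the 20S particle, is a stack of rings of alpha subunits (PSMA genes), which gate the entrance, and beta subunits (PSMB genes), of which PSMB5, PSMB6 and PSMB7 carry the active sites. The 19S particle caps the core, with a ring of ATPases (PSMC genes) that unfold and thread the substrate and non-ATPase subunits (PSMD genes) that bind ubiquitin, cut it off and hold the lid together. PSME1 to PSME4 encode other activators that can cap the core in place of the 19S particle. Myeloma cells make large amounts of immunoglobulin and depend on this degradation, and PSMB5 is the target of bortezomib and carfilzomib. When proteasome activity is low, the factor NFE2L1 is known to raise transcription of the subunit genes through antioxidant response elements in their promoters.

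On the chromosomes used there were 50946 peaks with DMSO, 36742 in the list labelled ATRA, 54279 with POM and 47193 with both agents. Their relative depth, inferred from the lowest common background, was 1, 0.133, 0.927 and 0.902. Fold enrichment is the authors' ratio of summit to local background within a library and is not scaled between libraries. Where 4 values follow each other without labels, they stand for DMSO, the list labelled ATRA, POM and ATRA+POM in that order. Reads at a summit were recovered from the fold and the p of each peak, and the exact Poisson intervals given with them (95%) cover counting error only. All 6 plasma cell markers checked (SDC1, TNFRSF17, CD38, IRF4, PRDM1 and XBP1) had a peak at a gene end in each list, and of 6 markers of other blood cells none did, except CD3E in the POM list.

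The list labelled ATRA stood apart from the rest in how closely it followed the DMSO list. Of its peaks 99.7% overlapped a DMSO peak, against 69.8% of POM peaks and 75.9% of ATRA+POM peaks. At the 643 places where a summit of the list labelled ATRA fell on the same base as a DMSO summit, the ratio of the local backgrounds lay within 5% of its median of 0.134 for 93.6% of the places. For POM against DMSO the corresponding share was 6.88% of 552 places, and for ATRA+POM against DMSO 9.91% of 464. The squared deviation of the reads from a fixed ratio, divided by what counting alone gives, had a median of 0.729 for the list labelled ATRA against DMSO, 10.3 for POM against DMSO and 15 for ATRA+POM against DMSO. The means were 1.87, 48.8 and 49.6 in that order. By its mean, the list labelled ATRA thus also deviated from DMSO by more than counting alone gives. The median of such a ratio lies below its mean under counting alone too, so 0.729 does not stand for less than counting error. Among the proteasome genes, the background scaled to DMSO depth agreed within 5% for 16 of 34 in the list labelled ATRA, 1 of 36 with POM and 1 of 35 with both agents. Whether DMSO and this list share an input or ChIP library was not tested. The ATRA-labelled values are given below as those of a shallow list close to DMSO, and counts over all lists are given with and without it.

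Promoters on which the results turn are shown first, as the 250 bases before the start site on the strand of the gene, from RefSeq (GRCh38.p14). Of the 38 genes 33 have a start site in that table. PSMA7, PSMB1, PSMB6, PSMB7 and PSMD4 do not. In the first 3 promoters, capitals mark 21 bases around the summit of the strongest DMSO peak that overlaps the printed window. In each of them a DMSO summit lies in the window. They are examples, since this also holds for promoters not shown. The DMSO summit lay at -192 bp for PSMC2, -174 bp for PSMC5 and -243 bp for PSMC6.

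PSMA4 promoter, chr15:78540155-78540404, plus strand: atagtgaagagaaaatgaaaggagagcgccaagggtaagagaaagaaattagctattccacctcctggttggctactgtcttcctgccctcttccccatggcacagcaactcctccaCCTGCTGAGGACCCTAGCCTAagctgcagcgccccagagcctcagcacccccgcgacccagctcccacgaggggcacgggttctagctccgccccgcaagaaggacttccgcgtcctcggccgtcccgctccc

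PSMA6 promoter, chr14:35292067-35292316, plus strand: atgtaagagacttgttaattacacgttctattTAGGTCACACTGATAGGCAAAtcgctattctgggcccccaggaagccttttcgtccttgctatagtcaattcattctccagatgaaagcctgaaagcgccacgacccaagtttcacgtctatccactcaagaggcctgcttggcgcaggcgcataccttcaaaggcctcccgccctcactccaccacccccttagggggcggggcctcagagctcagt

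PSMB2 promoter, chr1:35641527-35641776, minus strand: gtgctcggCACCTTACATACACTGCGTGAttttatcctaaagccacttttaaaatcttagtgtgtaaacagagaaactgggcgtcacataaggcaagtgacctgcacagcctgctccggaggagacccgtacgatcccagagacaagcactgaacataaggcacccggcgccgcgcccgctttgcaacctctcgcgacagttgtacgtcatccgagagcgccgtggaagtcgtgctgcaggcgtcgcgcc

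The PSMA4 summit fell on base 128 of the printed window with DMSO, 138 in the list labelled ATRA, 132 with POM and 123 with both agents. At PSMA6 the summits of the peaks over the window were at bases 43, 39, 56 and 46, and the letters AGGTCA, the core of a nuclear receptor site, occupy bases 34 to 39. The PSMB2 window also holds these letters, at bases 98 to 103 on the opposite strand, while its DMSO summit is at base 19. The PSMB2 summits of the other 3 lists fell up to 22 bp further upstream, just outside the printed window. In the next 3 promoters, capitals mark the antioxidant response element core, TGACNNNGC, the sequence that NFE2L1 and its relative NFE2L2 recognise.

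PSMB3 promoter, chr17:38752491-38752740, plus strand: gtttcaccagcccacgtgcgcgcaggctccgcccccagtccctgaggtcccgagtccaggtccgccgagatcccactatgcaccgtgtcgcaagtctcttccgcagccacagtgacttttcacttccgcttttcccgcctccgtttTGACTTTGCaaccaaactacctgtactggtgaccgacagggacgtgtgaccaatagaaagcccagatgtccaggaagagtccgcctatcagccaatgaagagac

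PSMD12 promoter, chr17:67366578-67366827, minus strand: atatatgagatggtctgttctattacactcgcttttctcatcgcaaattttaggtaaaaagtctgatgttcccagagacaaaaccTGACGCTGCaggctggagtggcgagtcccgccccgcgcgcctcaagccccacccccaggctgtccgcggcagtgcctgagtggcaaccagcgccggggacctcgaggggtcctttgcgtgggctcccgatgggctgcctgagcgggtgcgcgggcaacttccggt

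PSME2 promoter, chr14:24146611-24146860, minus strand: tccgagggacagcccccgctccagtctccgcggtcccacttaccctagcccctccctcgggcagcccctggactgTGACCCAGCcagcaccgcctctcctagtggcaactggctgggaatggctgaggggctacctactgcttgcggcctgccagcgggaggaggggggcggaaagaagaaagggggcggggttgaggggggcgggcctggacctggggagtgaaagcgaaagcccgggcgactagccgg

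The match begins 104 bases before the start of PSMB3, 165 before that of PSMD12 and 175 before that of PSME2. PSMB3 had no peak in any list. The summit of the strongest start-site peak of PSMD12 lay at -301 bp from the start with DMSO, -297 bp in the list labelled ATRA, -313 bp with POM and -330 bp with both agents, upstream of the match in each list. At PSME2 the summits lay at -483 bp and -469 bp with DMSO and in the list labelled ATRA, upstream of its match, but at 510 bp and 617 bp downstream of the start with POM and ATRA+POM.

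Most proteasome genes carried a peak at an annotated gene end, defined as a peak overlapping the 1000 bp on either side of it. A peak is called shared where it also overlaps such a window of another protein-coding gene. With DMSO 36 of the 38 did, where 48.8% of all protein-coding genes had one. In the list labelled ATRA 34 did (40% of all genes), with POM 36 (47.9%) and with ATRA+POM 35 (41.3%). A gene-end peak in all 4 lists was found for 33 of the 38 (37.3% of all genes), and in all lists other than the ATRA-labelled one for 35. The cytosolic ribosomal protein genes, another set of broadly expressed genes, were close to this, with 75, 71, 74 and 72 of 80. At start sites, where 33 members have an entry, 32 had a peak with DMSO, 30 in the list labelled ATRA, 32 with POM and 32 with both agents. The shares over all 15812 genes with an entry were 52.2%, 43.2%, 51.1% and 44.5%. Members without a gene-end peak were PSMA6 and PSMB3 in every list, PSMD1 and PSMD2 in the list labelled ATRA and PSMA1 with ATRA+POM.

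**Figure D1:**
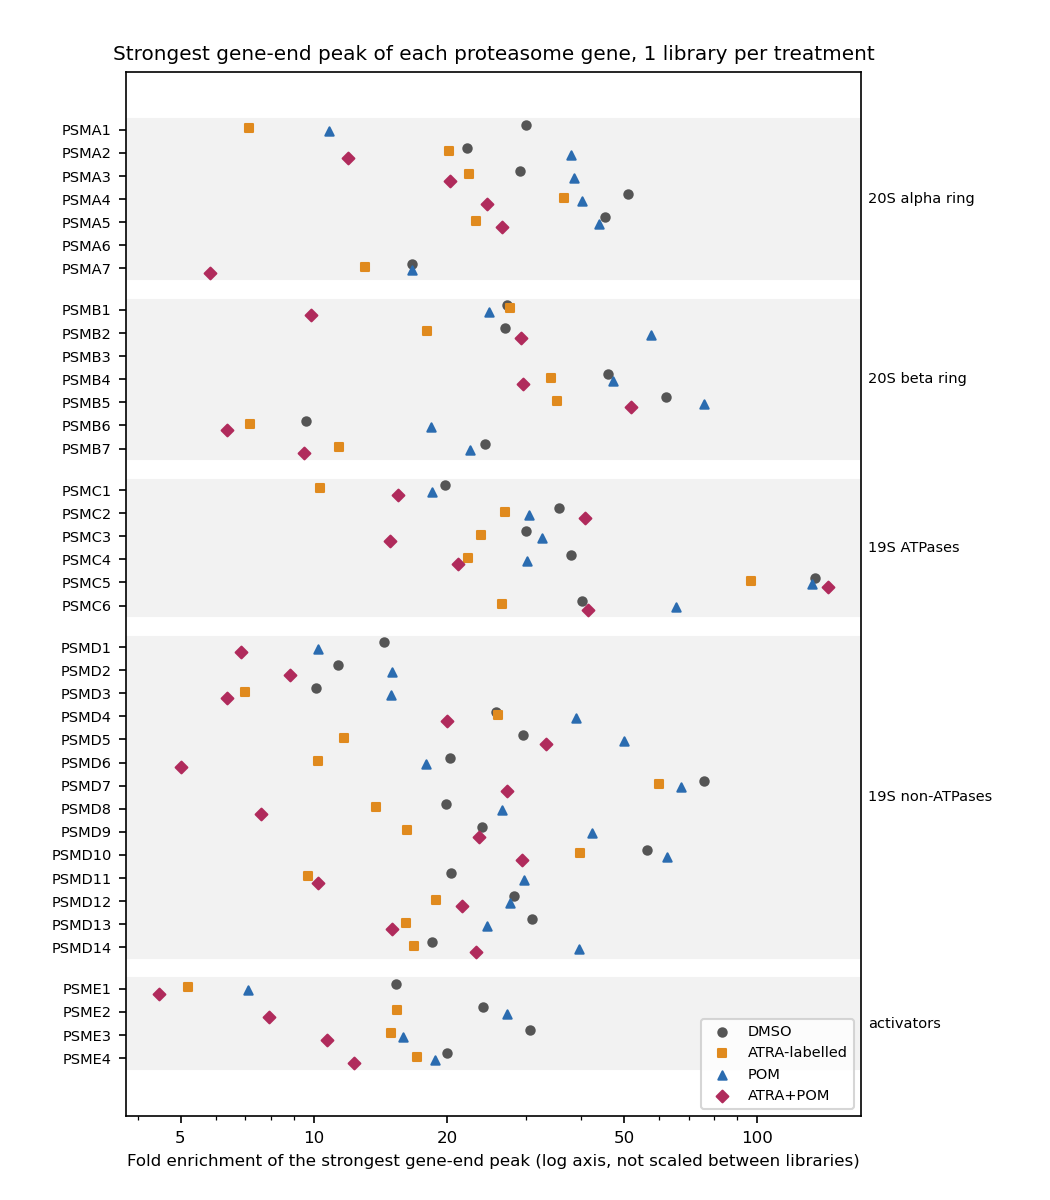
Fold enrichment of the strongest gene-end peak (log axis) for each proteasome gene, with 1 symbol per list and genes grouped by their place in the complex. PSMC5 stands to the right in all 4 lists (96.5 to 144), PSMA6 and PSMB3 have no symbol, and ATRA+POM symbols lie to the left for most genes.

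The alpha ring genes had median folds of 29.6 with DMSO, 21.3 in the list labelled ATRA, 38.2 with POM and 20.3 with both agents. By fold, PSMA4 had the strongest DMSO peak of the ring (chromosome 15, 78540405 to 78552417), with folds of 51, 36.7, 40.2 and 24.6 and 503, 93, 440 and 239 summit reads. PSMA7 had the weakest, with folds of 16.6, 13, 16.6 and 5.84, and its DMSO and ATRA+POM peaks are shared with SS18L1. PSMA2 had folds of 22.1, 20.2, 37.9 and 11.9, from a peak it shares with MRPL32, whose start lies 202 bp away on the other strand. PSMA3 and PSMA5 ranged from 20.3 to 45.3 over the 4 lists.

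For PSMA1 and PSMA6 the annotated gene reaches far beyond the start site of the promoter table. PSMA1 spans 139 kb of chromosome 11, and its strongest gene-end peaks lay at the far end, which it shares with PDE3B. The strongest had 559 reads and a fold of 30.1 with DMSO and 14 reads and 7.14 in the list labelled ATRA. With POM it had 93 reads and 10.8, and none was called with both agents. The POM peak (14643114 to 14643622) does not overlap the DMSO peak (14643778 to 14648584). Summits of the DMSO list and the list labelled ATRA lay 2168 bp apart, so these values come from different places. The start site of PSMA1, at 14520386, had a peak in each list, with folds of 34.5, 20.9, 50.7 and 24 and 381, 64, 791 and 272 reads. Its missing gene-end peak with ATRA+POM is thus one at the PDE3B side and not at the start site. PSMA6 had a start-site peak within its gene in every list, with folds of 44.5, 38.7, 64.5 and 44.1. The DMSO summit of that peak lay 525 bp after the start, and the DMSO peak over the promoter printed above had a fold of 38.9.

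The beta ring genes were the barest loci. Together the 7 genes held 11, 12, 10 and 11 peaks in their gene bodies with flanks of 5 kb, a mean of 1.57 per gene with DMSO against 4.57 for the alpha ring. The mean over all genes with DMSO was 2.19. PSMA1, which spans 139 kb, held 10 of the 32 alpha ring peaks, and PSMB3, in the beta ring, held none. The counts were not scaled for gene length. PSMB5, the chymotrypsin-like active site, had the strongest gene-end peak of the ring by fold in each list (chromosome 14, 23025851 to 23035220). Its folds were 62.1, 35.4, 75.8 and 52, and its summit reads 586, 74, 415 and 258. By summit reads PSMB4 was higher with DMSO (625), in the list labelled ATRA (89) and with POM (486), but not with both agents (241). The PSMB5 reads scaled to DMSO depth were 586 (540 to 635), 556 (437 to 698), 448 (406 to 493) and 286 (252 to 323). By reads its POM value is thus below DMSO while by fold it is above. Over all genes with overlapping peaks, scaled reads had a median log2 ratio against DMSO of -0.18 with POM and -1.11 with ATRA+POM. PSMB6, the caspase-like active site, had the weakest peak of the ring in every list, with folds of 9.61, 7.19, 18.4 and 6.38 and 57, 11, 62 and 22 reads. PSMB7, the trypsin-like active site, had folds of 24.3, 11.4, 22.5 and 9.51. PSMB2 and PSMB4 carry no active site. PSMB2 had 27, 18, 57.6 and 29.3, and PSMB4 had 46.1, 34.2, 47.2 and 29.6. PSMB1 had 27.2, 27.7, 24.8 and 9.86, from a peak shared with TBP except in the list labelled ATRA. The PSMB1 summits of that list and of DMSO lay 1272 bp apart, so these values come from different places.

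PSMB3 had no peak at its locus in any list. It lies on chromosome 17 at 38752741 to 38764225, and the nearest peak was 80.1 kb away with DMSO, 80.2 kb in the list labelled ATRA, 80 kb with POM and 80.2 kb with both agents. The gene sits in a stretch of 1020 kb (37821142 to 38844233) without a peak in any list, and 19 protein-coding genes lie wholly inside it, among them MLLT6, PCGF2, SOCS7 and MRPL45. The 2 sides of PSMB3 were unequal. In the 3 Mb towards lower coordinates there were 6, 2, 5 and 4 peaks, while the 2 Mb towards higher coordinates held 91, 72, 106 and 88, so the side towards lower coordinates held few peaks beyond the stretch too. Peaks on alternate sequences of chromosome 17 were 17, 8, 16 and 12, and their part in this stretch was not tested. By the definition of the stretch none of these 19 genes has a peak within its body, so the absence is not particular to PSMB3.

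**Figure D2:**
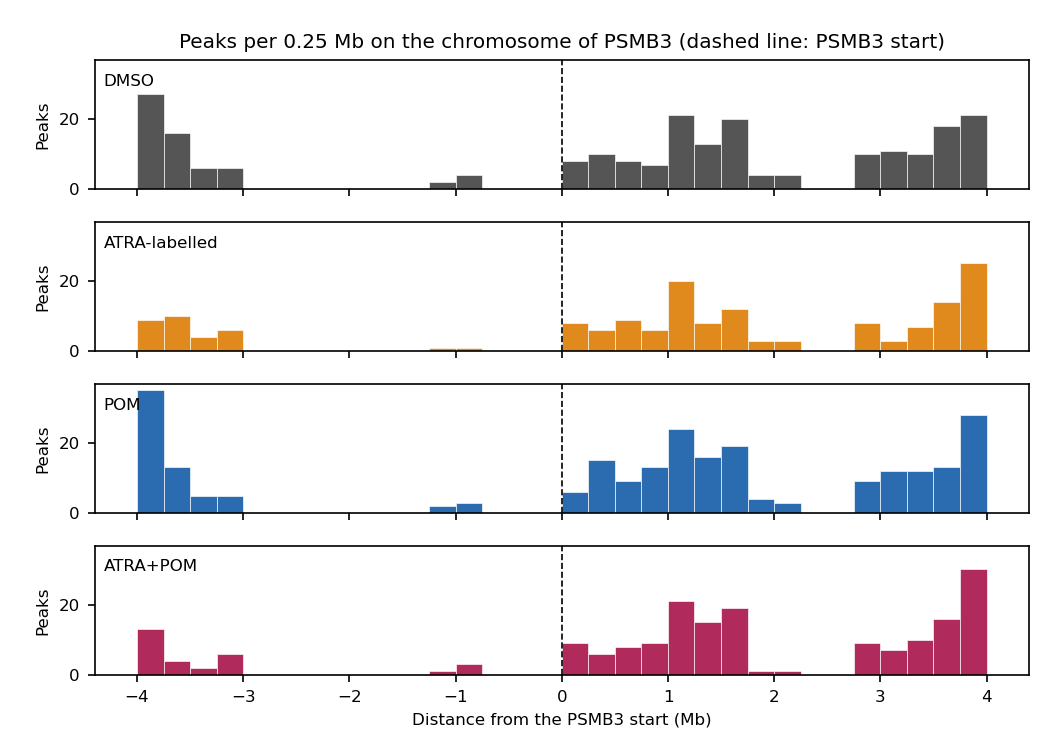
Number of peaks per 0.25 Mb by distance from the PSMB3 start (dashed line), up to 4 Mb on each side, with 1 panel per list. The 4 lists share the same empty bins to the left of the line, and peaks resume just to its right.

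The 19S ATPase genes all had a gene-end peak in every list, with median folds of 36.8, 25.1, 31.6 and 31. By fold, PSMC5 had the strongest gene-end peak of all proteasome genes in each list. Its peak on chromosome 17 (63826060 to 63829018 with DMSO) had folds of 135, 96.5, 133 and 144 and 1271, 207, 928 and 601 summit reads. By summit reads PSMD7 was higher with POM, at 1050. Among genes with a gene-end peak PSMC5 ranked at percentile 99.7, 99.6, 99.1 and 99.9 by fold. In each list the peak is shared with FTSJ3, a gene on the other strand, and these genes cannot be told apart as its source. With ATRA+POM the fold at PSMC5 was the highest of the 4 while the reads scaled to DMSO depth were the lowest, 666 (614 to 722) against 1270 (1200 to 1340) with DMSO. Its background at that depth was 3.53 reads with ATRA+POM and 8.45 with DMSO. PSMC1 had the weakest DMSO peak of the ring, with folds of 19.7, 10.3, 18.5 and 15.5. PSMC2, whose peak is shared with PMPCB, had 35.7, 26.9, 30.6 and 40.9, and PSMC6 had 40.3, 26.5, 65.5 and 41.4. At PSMC6 the peaks with POM and in the list labelled ATRA do not overlap the DMSO peak (52706630 to 52707087). PSMC3 and PSMC4 ranged from 14.8 to 37.9.

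The non-ATPase genes had median folds of 22.1, 16.2, 28.6 and 17.5. PSMD7, which pairs with the deubiquitinase PSMD14 in the lid, had folds of 75.6, 60, 67.2 and 27.2 and 1152, 186, 1050 and 417 reads. Its peak was also the broadest of the set in the first 3 lists, at 6359 bp with DMSO, 5338 bp in the list labelled ATRA, 5312 bp with POM and 3003 bp with both agents. Its summits in the 4 lists lay within 8 bp of each other, 442 bp before the start with DMSO. Scaled to DMSO depth its reads were 1150 (1090 to 1220), 1400 (1200 to 1610), 1130 (1070 to 1200) and 462 (419 to 509). ATRA+POM was thus the lowest of the 4 by fold, by scaled reads and by width. Lower values with ATRA+POM were not particular to PSMD7. Over all genes its median log2 ratio against DMSO was -0.84 by fold and -1.11 by scaled reads. Median widths of the strongest gene-end peak over all genes were 1023, 550, 901.5 and 579 bp. PSMD10, an assembly chaperone also called gankyrin, followed with 56.5, 39.9, 62.6 and 29.4. PSMD3 had the weakest DMSO peak by fold, with 10.1, 6.99, 14.9 and 6.38. PSMD4, a ubiquitin receptor, had 25.7, 26, 38.9 and 20, and PSMD14 had 18.5, 16.8, 39.7 and 23.2.

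PSMD1 and PSMD2 encode the large scaffold subunits of the 19S base and lacked any locus peak in the list labelled ATRA. PSMD1 had folds of 14.4 with DMSO, 10.2 with POM and 6.86 with both agents, from 66, 50 and 22 reads. PSMD2 had 11.3, 15 and 8.83, from 50, 94 and 43 reads. Its POM and ATRA+POM peaks do not overlap its DMSO peak (184299289 to 184300268). At the depth of the ATRA-labelled library the DMSO reads correspond to 8.76 for PSMD1 and 6.64 for PSMD2, where peaks of that list had 11 reads at the 10th percentile and 5 at the lowest. Of the 1014 genes whose strongest DMSO gene-end peak had 50 to 80 reads, 55.7% also had a gene-end peak in the list labelled ATRA, 91.9% with POM and 60.7% with both agents. PSMD1, PSMD2 and PSMB6 are the 3 members in that range, and PSMB6 had such a peak. Both genes had peaks with ATRA+POM, whose list kept nearly as few genes of that range at a relative depth of 0.902, and the part of depth in their absence was not tested.

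The lid gene PSMD6 had folds of 20.3, 10.2, 17.9 and 5.02, from 93, 16, 112 and 48 reads. Scaled to DMSO depth its reads were 93 (75.1 to 114) with DMSO and 53.2 (39.2 to 70.6) with ATRA+POM. The background there was 3.64 reads with DMSO and 9.72 with ATRA+POM at the same depth. The PSMD6 summits of these lists lay 540 bp apart, so reads and background come from different places of the peak. The remaining non-ATPase genes, PSMD5, PSMD8, PSMD9, PSMD11, PSMD12 and PSMD13, ranged from 19.8 to 31 with DMSO, and PSMD9 and PSMD13 have peaks shared with HPD and SIRT3, respectively.

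The activator genes had the lowest median fold of the groups in each list, at 22 with DMSO (22.1 for the non-ATPase genes), 15.1 in the list labelled ATRA, 17.3 with POM and 9.32 with both agents. PSME3, the nuclear PA28 gamma, had 30.7, 14.9, 15.9 and 10.7. PSME4, the PA200 activator, had 19.9, 17.1, 18.7 and 12.3, from peaks shared with ACYP2. Its ATRA+POM peak (53970133 to 53970621) does not overlap its DMSO peak (53971108 to 53971870). PSME2, an interferon-induced subunit of PA28, had 24.1, 15.4, 27.3 and 7.91, from a peak shared with RNF31. PSME1, its partner, had 15.3, 5.21, 7.11 and 4.48. The DMSO peak of PSME1 with 104 reads lay beyond the end of the gene towards EMC9. At its start site the folds were 5.36, 5.21, 7.11 and 4.48, with 18, 6, 29 and 14 reads.

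Numbers of peaks per locus differed widely among the genes. Over the 38 loci there were 115 peaks with DMSO, 114 in the list labelled ATRA, 114 with POM and 104 with both agents. The means were 3.03, 3, 3 and 2.74 per locus, against 2.19, 1.75, 2.25 and 1.99 for all genes. PSMA1, a locus of 139 kb, had the most, with 10, 11, 12 and 7. PSMA2, with a body of 15.3 kb, had 9, 6, 5 and 2, and PSMC6 had 8, 4, 5 and 4. PSMA4, PSMB4, PSMB7 and PSMD4 had exactly 1 peak in each list. The length covered by locus peaks was 121 kb with DMSO, 74.2 kb in the list labelled ATRA, 114 kb with POM and 83.3 kb with both agents, so the similar counts stand for peaks of different width. Joining peaks within 500 bp gave 68, 60, 69 and 61, and taking the gene body alone gave 73, 67, 69 and 69.

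**Figure D3:**
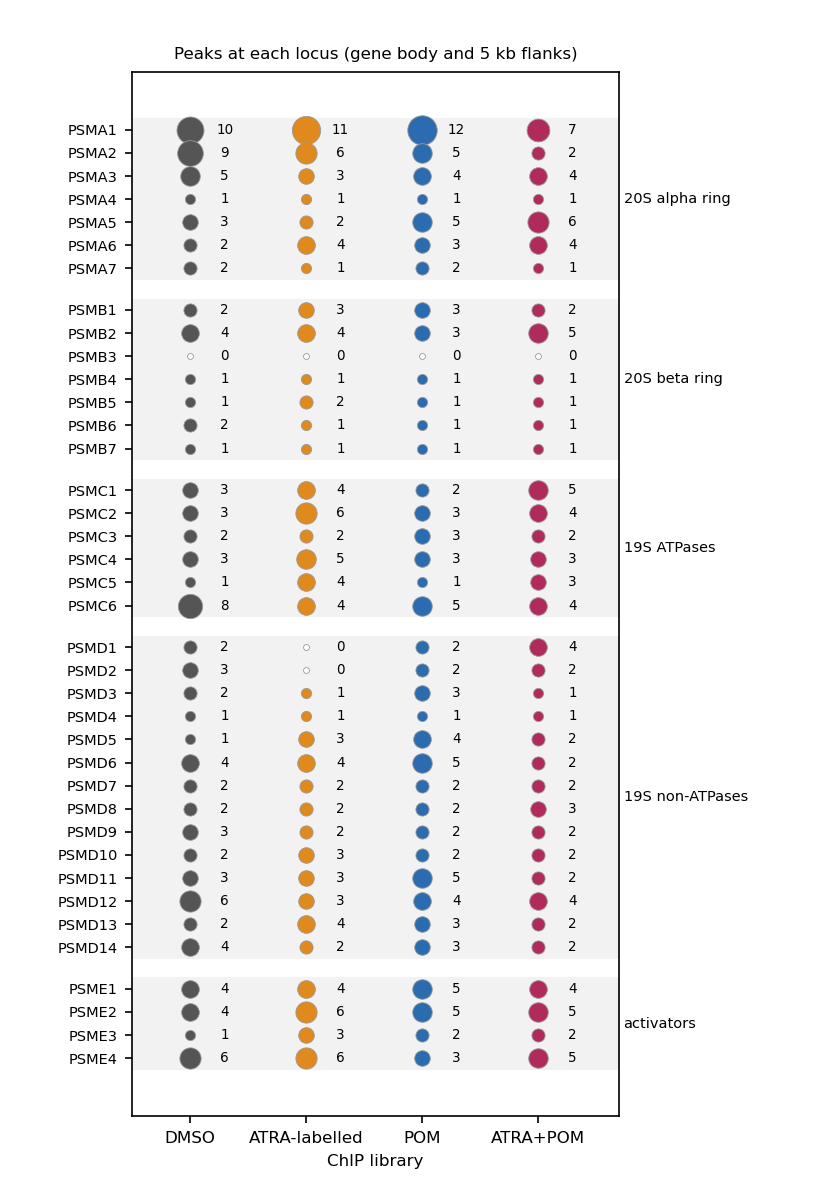
Peaks at each proteasome locus (gene body with 5 kb on both sides) in the 4 lists, where the area of a disc grows with the number printed beside it. PSMA1 has the most in each list (10, 11, 12 and 7), PSMB3 has none, and PSMD1 and PSMD2 have none in the list labelled ATRA.

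Summits lay on both sides of the start site. With DMSO 17 of the 32 genes with a start-site peak had the summit downstream of the start and 15 upstream, and the median distance was 300 bp (314 bp over all genes with such a peak). Of the 30 genes with a start-site peak in all 4 lists, 9 kept the 4 summits within 50 bp, and the median span was 222 bp. Without the list labelled ATRA these were 12 of 32 genes and 160 bp. PSMD7 (8 bp), PSMA4 (15 bp), PSMA5 (20 bp), PSMB2 (22 bp) and PSMB5 (26 bp) were the most fixed. PSME1 (1479 bp) and PSMA3 (1465 bp) spanned the most, so that a ratio between lists at those genes can compare different peaks. For the ratios between lists, only peaks of a gene that overlap were used, but summits of overlapping peaks can still lie apart. They were over 250 bp apart for 8 of 31 genes in POM against DMSO, 6 of 31 in the list labelled ATRA against DMSO, 7 of 31 in ATRA+POM against DMSO, 2 of 31 in ATRA+POM against POM and 4 of 27 in ATRA+POM against the list labelled ATRA.

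The POM list was compared with the DMSO list at the proteasome genes. No proteasome gene lost its gene-end peak (0 of 36, where 5.93% of all genes with a DMSO peak did), and neither PSMA6 nor PSMB3 gained one (3.79% of genes without a DMSO peak did). Among all genes the share kept with POM was 91.9% at 50 to 80 DMSO reads and 99.6% at 320 to 640. The losses were 2 with windows of 500 bp, with peak midpoints and with the stronger 50% of each list, and 1 with equal numbers of peaks. For 31 genes with overlapping peaks the median log2 ratio of fold was 0.00, with 15 higher and 16 lower, beside 0.07 over all 7866 genes measured the same way. The highest were PSMD14 (1.10), PSMB2 (1.09) and PSMB6 (0.93), and the lowest was PSME3 (-0.94). PSMB2 had 343 reads (308 to 381) with DMSO and 392 (352 to 434) with POM at DMSO depth, while its background went from 11.7 to 5.74 reads. PSMD14 had 219 (191 to 250) and 254 (222 to 288) reads, with backgrounds of 10.9 and 5.34, but its summits lay 957 bp apart, so these values come from different places of the peak. For PSMB2 the summits lay 20 bp apart. The median background of the proteasome genes at DMSO depth was 9.16 reads with DMSO, 8.96 in the list labelled ATRA, 6.39 with POM and 6.23 with both agents. At PSMB2 the background was lower with POM, and the read interval overlaps that of DMSO, where both intervals cover counting error only. What the background contributes to the higher fold was not tested.

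The ATRA+POM list was compared with the DMSO list and with the POM list. Against DMSO only PSMA1 lost a gene-end peak (1 of 36, where 17.3% of all genes did), and no gene gained one (1.75%). The share of genes kept rose from 60.7% at 50 to 80 DMSO reads to 98.6% at 320 to 640. Median DMSO reads were 288 for the proteasome genes and 182 for all genes with a peak, so the share over all genes is not matched to them. Against POM the loss was again PSMA1 (1 of 36, 14.5% of all genes), with no gain (0.653%). The median log2 ratio of fold was -0.85 against DMSO, beside -0.84 over all genes, with 6 of 31 higher and 25 lower. Against POM it was -0.85, beside -0.93, with 2 of 31 higher, PSMC2 (0.42) and PSMC5 (0.11). The lowest against DMSO was PSMD6 (-2.01), and PSME2 (-1.61), PSME3 (-1.52) and PSMA7 (-1.51) followed. PSMD14 (0.33), PSMC2 (0.20) and PSMD5 (0.17) were the highest. In this comparison the summits lay 540 bp apart at PSMD6, 1100 bp at PSME2, 949 bp at PSMD14 and 987 bp at PSMC2. Summit reads scaled for depth gave a median log2 ratio of -0.99 against DMSO, beside -1.11 over all genes. PSMA1 was not lost in either comparison with windows of 3000 bp or at start sites, and 8 genes were lost against DMSO and 7 against POM among the stronger 50% of each list. Both comparisons share the ATRA+POM library, and in both the proteasome genes lay near the centre of all genes.

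The list labelled ATRA lost PSMD1 and PSMD2 against DMSO (2 of 36, where 18.2% of all genes lost a gene-end peak) and gained none (0.0685%). Here too the share kept rose with DMSO reads, from 55.7% of genes at 50 to 80 reads to 99.1% at 320 to 640. The losses were 4 with windows of 500 bp and 8 with the stronger 50% of each list. Its median log2 ratio of fold was -0.53 over 31 genes, beside -0.62 over all genes, and the scaled reads gave 0.15 beside 0.14. Against that list, ATRA+POM lost PSMA1 (1 of 34, 6.59% of all genes) and gained PSMD1 and PSMD2 (2 of 4, 6.6%). The median ratio there was -0.13 over 27 genes, beside -0.21.

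**Figure D4:**
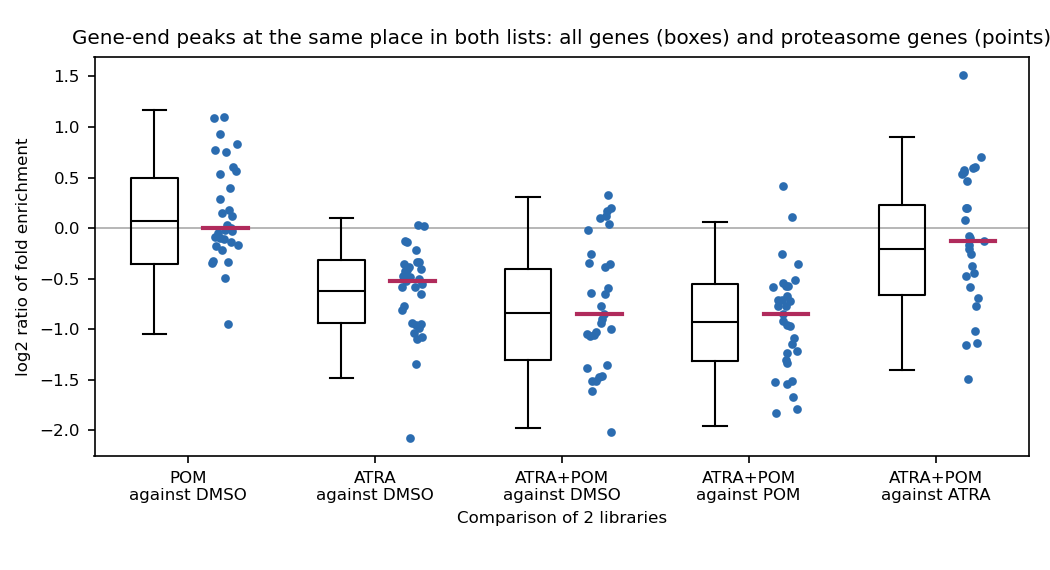
Log2 ratio of fold enrichment at gene-end peaks that overlap between 2 lists, for 5 comparisons. Boxes give the quartiles, the median and the 5th to 95th percentiles over all genes, points are proteasome genes and red bars their medians, which lie near the median of all genes in each comparison (0.00 beside 0.07 for POM against DMSO, -0.85 beside -0.84 for ATRA+POM against DMSO).

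Of the 33 genes with a gene-end peak in all 4 lists, the highest fold was found with POM for 17, with DMSO for 13, with ATRA+POM for 2 and in the list labelled ATRA for 1. Over all 7449 such genes the shares were 53.8%, 42.1%, 1.73% and 2.39%. The lowest fold was found with ATRA+POM for 21 and in the list labelled ATRA for 12, where the shares over all genes were 62.4% and 34.2%. Without the list labelled ATRA, 35 genes had a peak in the other 3 lists, the highest fold was with POM for 18, DMSO for 15 and ATRA+POM for 2, and the lowest was with ATRA+POM for 29, DMSO for 4 and POM for 2. The median fold of the strongest gene-end peak was 27.1 with DMSO, 17.5 in the list labelled ATRA, 29.9 with POM and 15.5 with both agents, against 22.7, 16.6, 24.2 and 13.8 for all genes with such a peak. Median summit reads were 288, 41, 232 and 141, against 182, 33, 156 and 90. The proteasome genes as a set were therefore above the middle of all genes with a peak in each list in median reads and median fold. By fold, 23 of 36 with DMSO, 19 of 34 in the list labelled ATRA, 24 of 36 with POM and 20 of 35 with both agents were above that middle.

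Other genes of the pathway were read from a list of 38 genes outside the set. A gene-end peak was found for 31 with DMSO and for 30 in each of the other lists. All 9 partners of the 26S particle had one in each list, among them AKIRIN2, the nuclear import factor of the proteasome (folds of 48.9, 24.7, 48 and 38.1). All 6 genes listed as regulators (NFE2L1, NFE2L2, DDI2, NGLY1, VCP and SYVN1) did as well, and NFE2L1 itself had 54.4, 30.9, 63.7 and 22.9. Of the 11 ubiquitin and shuttle genes all had one with DMSO and 10 in the other lists, where SQSTM1 (6.77 with DMSO from 23 reads) was the one without. Of the 6 assembly factors PSMG2 and PSMG4 had none in any list.

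The immunoproteasome subunits, which replace the active beta subunits after interferon, were divided. PSMB10 had folds of 32.1, 22.3, 40.9 and 32.5. PSMB8 and PSMB9, neighbours in the class II region of chromosome 6, had none. The nearest peak was 218 kb from PSMB8 with DMSO and in the list labelled ATRA, and 726 kb with POM and ATRA+POM. Any peaks on alternate sequences of chromosome 6 were not counted, and their part in this gap was not tested. The inhibitor gene PSMF1 had 4, 6, 6 and 3 peaks at its locus but none at a gene end.

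Motif letters were searched on both strands in windows from 250 bases before to 50 after each start, for the 33 proteasome genes and for 15812 genes. The antioxidant response element core TGACNNNGC was found in 12 (36.4%, against 17.9% of all genes): PSMA4, PSMB3, PSMC4, PSMC5, PSMD1, PSMD3, PSMD5, PSMD9, PSMD12, PSME1, PSME2 and PSME4. These letters also admit an AP-1 site followed by GC. The ETS letters CCGGAAG were found in 12 (36.4%, against 16.5%) and the YY1 letters AAGATGGC in 5 (15.2%, against 4.67%). CCAAT, bound by NFY, was found in 17 (51.5%, against 42.1%) and the GC box GGGCGG in 22 (66.7%, against 64.2%). The nuclear receptor core AGGTCA was found in 5, PSMA6, PSMB2, PSMD1, PSMD2 and PSMD7, a share of 15.2% that equals the 15.2% of all genes. GAAANNGAA, read by interferon regulatory factors, was found in 5 (15.2%, against 9.21%), the E-box CACGTG in 3 (9.09%, against 10.9%), the NRF1 letters TGCGCATGC in 2 (6.06%, against 2.43%) and the heat shock letters GAANNTTC in 0 (against 7.39%). Median GC content of the windows was 61.3% and 62.3%. Of the 33 genes 7 (21.2%) had a start on the other strand within 1 kb, against 13.6% of all genes, the closest being PSMD13 with SIRT3 (45 bp) and PSMC5 with FTSJ3 (58 bp).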

How the data were processed

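Chromatin immunoprecipitation libraries of OPM-2 cells, 1 per treatment, were read as 4 peak lists of 10 columns, grouped by the treatment in their labels. Per the labels' protocols, cells were fixed with formaldehyde, chromatin was sonicated and libraries were made for DNA nanoball sequencing. Coordinates are on hg38, per the submitters' processing notes. For the aligner, the peak caller and the antibody, nothing is given in the sources used here. The deposited score is 10 times the −log10 p as a whole number. Fold is the authors' ratio of a summit to its local background, and the −log10 p and −log10 q are the authors' values too. The summit offset is the authors' as well. Peaks were called per library, and the lowest −log10 p was 5.02.

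Reads and background at a summit were computed from fold and p under a Poisson caller that adds 1 to both. Reads came out whole within 0.02 for 100.0% of peaks in each list. This, and the relative depth, are inferences from the values. Gene bodies and start sites came from RefSeq (GRCh38.p14). A peak was assigned to a gene by an overlap of at least 1 bp. Ranks are by −log10 q or fold within a list. With 1 library per group no test was made.

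Values are named for the strongest and weakest DMSO peak of each subunit group, for members without a gene-end peak in a list or called in 1 list of a comparison only, for the 3 members with the most and the fewest locus peaks, and for members sharing a peak. PSMB2, PSMB4, PSMD4, PSMD6, PSMD10 and PSMD14 are named besides, after their values were seen. The members and lists were chosen with earlier results of these data known. Steps were tested on simulated data: overlaps equalled those of bedtools 2.31.1, and the reads of 3000 simulated peaks were recovered. Python 3.11.15, numpy 2.4.6, pandas 2.3.3, scipy 1.17.1 and matplotlib 3.10.9 were used. The alternatives were other windows, peak midpoints, an equal number of 36742 peaks, the stronger 50% of each list, merged peaks, gene bodies alone and, chosen after seeing the data, windows at start sites and tallies of summit spans and fold order without the list labelled ATRA. The comparison of backgrounds between lists was also added after seeing the data. The 4 input samples have no list of their own and were not analysed here.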

Additional observations from a re-analysis of the deposited data

Results flagged for a closer look

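Peaks on alternate sequences of chromosome 17, which lie outside the chromosomes used for the proteasome genes, numbered 17 with DMSO, 8 in the list labelled ATRA, 16 with POM and 12 with both agents. They are given because the lists hold signal there that no comparison uses, and because PSMB3, on the same chromosome, lies in a stretch without a peak. Whether any of these peaks belongs to that stretch was not tested.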

How the results depend on the processing

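Of 119 values computed under alternatives, 73 stayed within 1.5 times and 46 moved further. Counts of proteasome genes with a gene-end peak in a list or in all lists, and median folds, stayed within 1.5 times. Leaving out the list labelled ATRA gave 35 genes in all lists in place of 33. It also gave DMSO the lowest fold for 4 genes and POM for 2, in place of 0 for both. Locus peaks in DMSO, ATRA-labelled, POM and ATRA+POM order were 73, 67, 69 and 69 for gene bodies alone, 68, 60, 69 and 61 with peaks within 500 bp merged, and 72, 65, 67 and 60 among the stronger 50% of peaks. These settings use less sequence or fewer peaks by construction. Genes lost with POM against DMSO were 2 with windows of 500 bp, with the stronger 50% and with midpoints, and 1 with equal numbers of peaks. Gains there were 1 with the stronger 50% and with midpoints. Losses in the list labelled ATRA against DMSO were 4 with 500 bp and 8 with the stronger 50%, and the gain was 1 with midpoints. Losses with ATRA+POM against DMSO were 3 with 500 bp, 0 with 3000 bp, 8 with the stronger 50%, 4 with equal numbers, 2 with midpoints and 0 at start sites, and the gain was 1 with midpoints. Against POM they were 2, 0, 7, 3, 2 and 0 in that order, with gains of 1 at 500 bp and 2 with midpoints. Against the list labelled ATRA they were 2, 0, 2, 3, 3 and 0, with gains of 1 with equal numbers and 4 with midpoints. The cause of these shifts was not tested. No paired analysis was possible because there is 1 library per treatment. The ATRA-labelled library had a relative depth of 0.133. Of genes with 50 to 80 DMSO reads its list kept 55.7%, and that of ATRA+POM, at 0.902, kept 60.7%. What depth contributes was not tested.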
